A study of Mus musculus with 24 samples.

Results

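Imprinted genes are expressed mainly or only from the copy inherited from 1 parent, and the genes described here are those imprinted genes, with a few of their neighbours, that lie outside the Prader-Willi cluster. They were chosen as a list of 49 gene symbols from known imprinted clusters, and every listed symbol that occurred in the deposited table of 14922 genes was kept, which gave 40 genes. The other 9 (Rtl1, Dio3, Slc22a2, Slc22a3, Phlda2, Slc22a18, Tspan32, Ascl2 and Rasgrf1) were not analysed here. No measured value served as a criterion, but the list was drawn up with earlier results of these data known.

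The RNA came from primary neural stem cells (NSCs), grown as an adherent layer from the cortex of E14.5 embryos and harvested at under 10 passages, with 100 ng of RNA for each poly(A) library. All cells were female. On the FVB/NJ strain, the cells were Smchd1+/+ (FVB_WT) or homozygous for MommeD43, a missense allele of Smchd1 induced chemically by ENU (FVB_MD43). On C57BL/6J, both groups carried Smchd1 fused to GFP, without MommeD43 (B6GFP_WT, which the labels call Smchd1+/+ and the study homozygous for the fusion) or with MommeD43 made by genome editing and homozygous (B6GFP_MD43). Strain and the GFP fusion therefore changed together and cannot be told apart. Of 24 labelled libraries, the batch 1 columns of FVB_MD43 replicate 3 and B6GFP_MD43 replicate 2 equalled the mean of the rest of their group, and these 2 columns were left out. That left 6 libraries of 5 lines in FVB_WT, 5 libraries of 4 lines in FVB_MD43, 6 of 4 in B6GFP_WT and 5 of 4 in B6GFP_MD43. Batch 1 held both strains, batch 2 only FVB and batch 3 only B6GFP. SMCHD1 is a chromatin protein that helps to silence the inactive X chromosome, clustered protocadherins and some imprinted genes, and the study asked what the MommeD43 change does to gene expression.

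Most imprinted genes sit in clusters, and each cluster is governed by an imprinting control region whose DNA is methylated on the maternal or the paternal copy. Where that methylation was laid down in the egg, the unmethylated paternal copy often makes a long non-coding RNA, such as Airn or Kcnq1ot1, that silences neighbouring genes on the same chromosome. In early embryos, ZFP57, which binds the methylated hexamer TGCCGC, and TRIM28 keep the methylation in place at these regions. Many of these genes act on fetal growth, with IGF2 as a growth factor, IGF2R as the receptor that removes it, and CDKN1C as a brake on the cell cycle. Both strains are inbred, so reads cannot be assigned to a parental copy. Every value below is the total RNA of both copies, and in a bulk culture fewer cells expressing a gene and less RNA per cell cannot be told apart.

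Promoters were read to show how these genes look in sequence. A promoter of 300 bases around the start (RefSeq, GRCm38.p6) was found for 30 of the 40 genes, 46 promoters in all. The hexamer TGCCGC, searched on both strands and therefore also as GCGGCA, was found in 13 of the 46 (28.3%), in 19.2% of the promoters of genes in the table and in 11.6% of all 32851 promoters. The median number of CpG dinucleotides was 16.5 in the 46 promoters, 20 for genes in the table and 7 over all promoters. Overlapping windows were counted separately, so 2 Mest windows, starting at 30737800 and 30737803 with 2 copies each, are 2 of the 13. A match of these letters is a description and not a binding site. The promoters printed are 1 each of 5 paternally expressed genes that hold the hexamer, with the hexamer in capitals, because 4 of these genes reappear in the comparisons between strains. They lie at chr1:63200108-63200407 on the plus strand (Zdbf2, the more upstream of its pair of promoters, with 3 copies), chr6:30737800-30738099 on the plus strand (Mest, 2 copies), chr6:58907077-58907376 on the minus strand (Nap1l5, 2 copies), chr2:157559828-157560127 on the plus strand (Nnat, 1 copy) and chr10:13090582-13090881 on the plus strand (Plagl1, 1 copy), each written 5′ to 3′ in the direction of the gene.
Zdbf2: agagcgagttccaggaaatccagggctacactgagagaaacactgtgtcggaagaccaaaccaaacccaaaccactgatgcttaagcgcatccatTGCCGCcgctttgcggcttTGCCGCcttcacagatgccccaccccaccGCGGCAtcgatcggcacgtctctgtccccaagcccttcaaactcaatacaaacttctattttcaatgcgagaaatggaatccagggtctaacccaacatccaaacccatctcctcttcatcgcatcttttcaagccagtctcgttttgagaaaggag
Mest: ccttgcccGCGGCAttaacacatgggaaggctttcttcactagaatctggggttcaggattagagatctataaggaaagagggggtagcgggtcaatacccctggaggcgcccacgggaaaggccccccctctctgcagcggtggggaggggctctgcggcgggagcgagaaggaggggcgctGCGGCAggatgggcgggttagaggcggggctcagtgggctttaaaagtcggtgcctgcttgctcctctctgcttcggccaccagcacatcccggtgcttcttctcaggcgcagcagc
Nap1l5: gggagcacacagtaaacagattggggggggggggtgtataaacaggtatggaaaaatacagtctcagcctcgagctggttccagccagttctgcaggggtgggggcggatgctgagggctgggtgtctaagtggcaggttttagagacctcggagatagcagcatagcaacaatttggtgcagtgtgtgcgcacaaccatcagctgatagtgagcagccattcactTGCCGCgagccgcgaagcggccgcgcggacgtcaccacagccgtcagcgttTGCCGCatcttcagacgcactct
Nnat: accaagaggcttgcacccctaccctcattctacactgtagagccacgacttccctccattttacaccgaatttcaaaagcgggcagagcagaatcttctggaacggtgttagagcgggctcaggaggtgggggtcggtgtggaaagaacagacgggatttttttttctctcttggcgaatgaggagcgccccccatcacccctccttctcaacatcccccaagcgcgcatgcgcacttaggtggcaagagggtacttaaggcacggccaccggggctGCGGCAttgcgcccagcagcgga
Plagl1: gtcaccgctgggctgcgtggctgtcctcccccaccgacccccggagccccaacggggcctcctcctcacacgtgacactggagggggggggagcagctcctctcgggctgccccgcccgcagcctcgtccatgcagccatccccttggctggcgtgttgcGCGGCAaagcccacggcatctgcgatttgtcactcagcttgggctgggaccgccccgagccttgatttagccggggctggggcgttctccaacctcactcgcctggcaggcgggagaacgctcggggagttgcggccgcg

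The promoters of Mest, Nap1l5 and Nnat held 17 CpG each, that of Plagl1 held 26 and that of Zdbf2 held 15. The second Zdbf2 promoter (chr1:63273019-63273318) held 38 CpG and no copy of the hexamer. None was found in the windows of Airn, Igf2r, Kcnq1ot1 and Peg3 either, which says only that these letters are not in those windows.

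The level of the 40 genes covered the whole range of the data. Values were log2 CPM, the reads of a gene scaled to the total of its library, corrected for batch by the authors, and a line with several libraries was entered as their mean. The median level was 4.27 log2 CPM for these genes and 4.54 for all genes. In every group mean, 28 genes lay above 1 CPM and 6 lay below it, and the remaining 6 lay on both sides.

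The highest were Mest, an enzyme-like protein first found in mesoderm, with an average of 10.60 log2 CPM, Gnas, the alpha subunit of the stimulatory G protein, with 10.33, Cd81, a tetraspanin, with 9.26 and Peg10, a gene derived from a retrotransposon, with 8.36. Scaled by the length of the merged exons of GENCODE M21, whose gene ends can lie beyond those of RefSeq, the mean level was 393 CPM per kb for Mest, 213 for Cd81, 133 for Nnat, 115 for Gnas and 49.2 for Peg10. The lowest were the maternally expressed non-coding RNAs of the Dlk1-Dio3 cluster and the matrix proteoglycan Dcn. Meg3 had a mean of -1.62 log2 CPM, Rian, the host of small nucleolar RNAs, -1.32, Mirg, a host of microRNAs, -3.16 and Dcn -3.69. Mirg lay at a floor value shared with another library of its batch in 9 of 22 libraries and Dcn in 12, so values this low rest on very few reads. The other genes lay between. Those with means of 7.12 to 6.18 log2 CPM were Inpp5f, Grb10, Ppp1r9a, Copg2, Igf2r, Nap1l5, Commd1 and H13, and those at 5.84 to 4.83 were Peg3, Impact, Peg13, Trappc9, Blcap and Sgce. Mcts2, Zrsr1, Plagl1 and Cdkn1c followed at 3.71 to 3.07, Kcnq1ot1 at 1.88, Ddc, Airn, Asb4 and Nespas at 0.74 to 0.44, and Usp29, Zim1 and Zdbf2 at -0.11 to -0.23. Cobl, the neighbour of Grb10, lay at -1.28. Igf2 (mean -0.40 log2 CPM) and Dlk1 (-0.27) also lay below 1 CPM on average, and H19, the non-coding RNA beside Igf2, lay at 1.84.

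**Figure D1:**
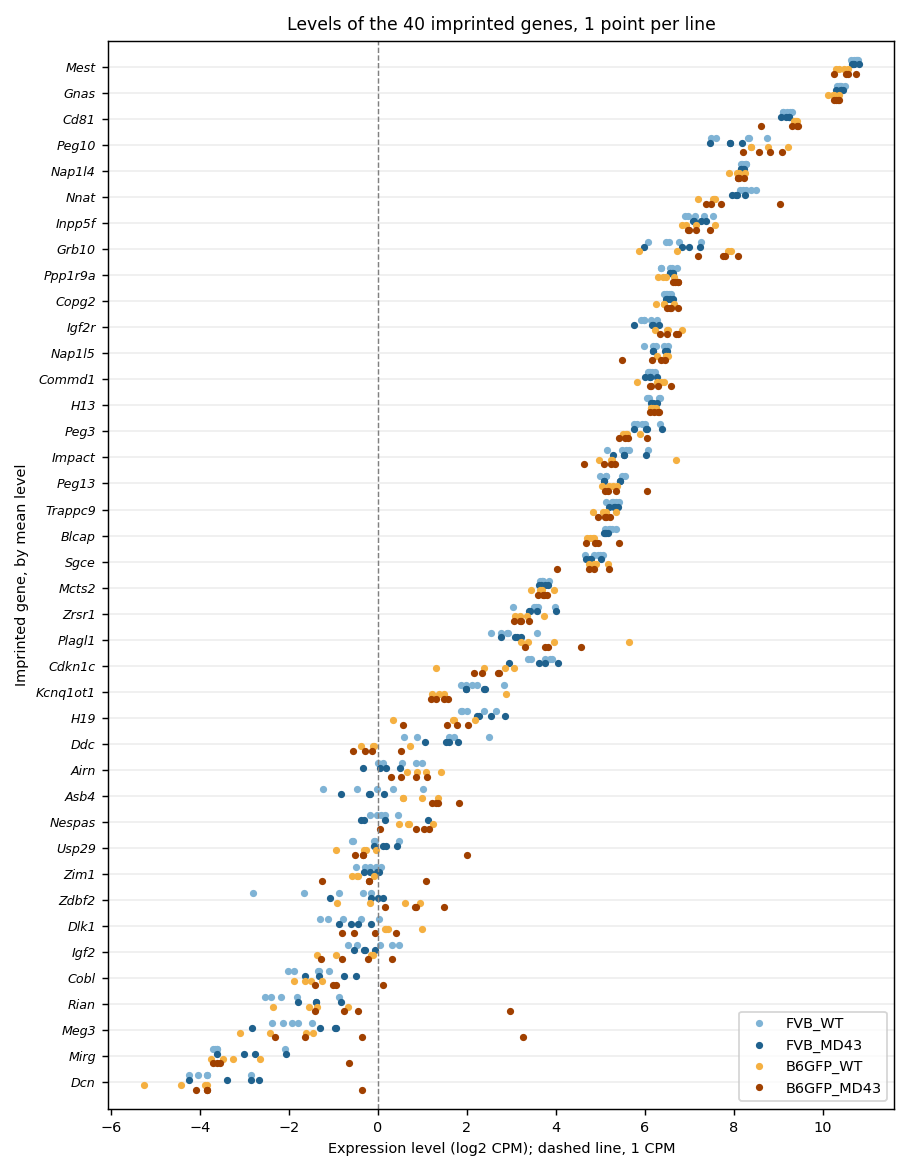
Level of each of the 40 imprinted genes (log2 CPM, horizontal axis), ordered by mean, with 1 point per line in the 4 groups. Mest, Gnas and Cd81 lie at the top, the Dlk1-Dio3 non-coding RNAs and Dcn at the bottom, and a single B6GFP_MD43 line lies apart for Rian (2.96) and Meg3 (3.26).

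Within a cluster, neighbours differed widely in level. In the Peg10-Sgce cluster, Peg10 lay at 49.2 CPM per kb, Ppp1r9a (neurabin) at 6.51, Sgce (epsilon-sarcoglycan) at 2.69 and Asb4 at 0.363. In the Kcnq1ot1 cluster, the neighbours Cd81 and Nap1l4 lay at 213 and 92.8 CPM per kb, Cdkn1c at 4.12 and the non-coding RNA Kcnq1ot1 at 0.0396. Airn lay at 0.421 CPM per kb against 8.53 for Igf2r, whose silencing on the paternal copy it brings about. Exons of 17 of the 40 genes overlap a gene on the other strand, and strand use in counting was not stated, so the reads of such pairs cannot be told apart. Pairs with both genes described here are Mest and Copg2 (912 bases of exon shared), Gnas and Nespas (988) and Zrsr1 and Commd1 (412). The rest of the 17 share exon bases with genes outside the list. They are Usp29 (2582 bases with Zim3), Meg3 (1228 with Gm26906), Cdkn1c (625 with Gm44732), H13, Kcnq1ot1, Cd81, Zdbf2, Nnat, H19, Igf2 and Plagl1.

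The cells were checked against cell type markers. All 7 NSC markers in the table were above 1 CPM on average, and their summed level lay between 12.37 and 12.93 log2 CPM in the 17 lines. Of 4 astrocyte markers, 3 lay below 1 CPM on average over all libraries, though above it in both FVB groups. The endothelial list had 4 of 5 below 1 CPM, the mesenchymal list 5 of 7, and none of 5 microglial markers was in the table. Neuronal markers (7 in the table, Neurod1 below 1 CPM on average) summed to 9.60 to 9.93 log2 CPM in 13 lines of FVB and B6GFP_WT and to 9.88 to 10.39 in B6GFP_MD43. The oligodendrocyte lineage list summed to 10.45 to 11.11 over the lines. Smchd1 itself averaged 7.27 ± 0.118 log2 CPM over the 5 FVB_WT lines (mean ± SD) and 7.36 ± 0.0704 over the 4 FVB_MD43 lines. It averaged 6.96 ± 0.277 over the 4 lines of B6GFP_WT and 7.16 ± 0.193 over the 4 of B6GFP_MD43. MommeD43 is a missense allele, so this level gives no check of the labels. Depth relative to the deepest library, read from the steps of the low values, ran from 0.526 to 0.893 for batch 1. It was lowest for batch 2 (0.137 to 0.19) and reached 0.435 to 1 for batch 3, and the absolute depth was not stated. Quality weights in the fit ran from 0.101 to 4.90, lowest for B6GFP_WT replicate 4 (0.101) and for B6GFP_MD43 replicate 2 (0.158).

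MommeD43 was first compared with wild type in each strain. None of the 40 imprinted genes passed the threshold (limma, Benjamini-Hochberg adjusted p under 0.05 over all genes) in FVB, where 0.0737% of all genes passed, and 6 had an unadjusted p under 0.05 (6.86% of all genes). None passed in B6GFP, where 0.0% of all genes passed, with 1 at an unadjusted p under 0.05 (2.14%). None passed in the average over both strains (0.0335% of all genes, 3 imprinted genes at an unadjusted p under 0.05, beside 4.62%), and none in the difference of the MommeD43 effect between strains (0.0% of all genes, 4 at an unadjusted p under 0.05, beside 3.08%). The smallest adjusted p of an imprinted gene was 0.253 in FVB and 1 in B6GFP. The median fitted change of the 40 genes was 0.05 on the log2 scale in FVB, beside 0.01 for all genes, and 0.04 in B6GFP, beside 0.01 for all genes. Not 1 of the 40 had line ranges that did not overlap between MommeD43 and wild type, in FVB (1.05% of all genes had such ranges) or in B6GFP (1.23%).

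The precision differed between the genes. The 95% interval of the MommeD43 effect lay within 0.5 on the log2 scale on both sides of 0 for 25 of the 40 genes in FVB and 20 in B6GFP. The intervals were narrow for highly expressed genes such as Mest, Gnas and Nap1l4, and wide for Zdbf2, Meg3, Rian and Mirg. A change in Zdbf2, Meg3, Rian or Mirg was therefore not detectable with these libraries unless it was large. The interval of Grb10 in B6GFP was wide as well, at -0.57 to 0.64, though its mean level was 7.03 log2 CPM.

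**Figure D2:**
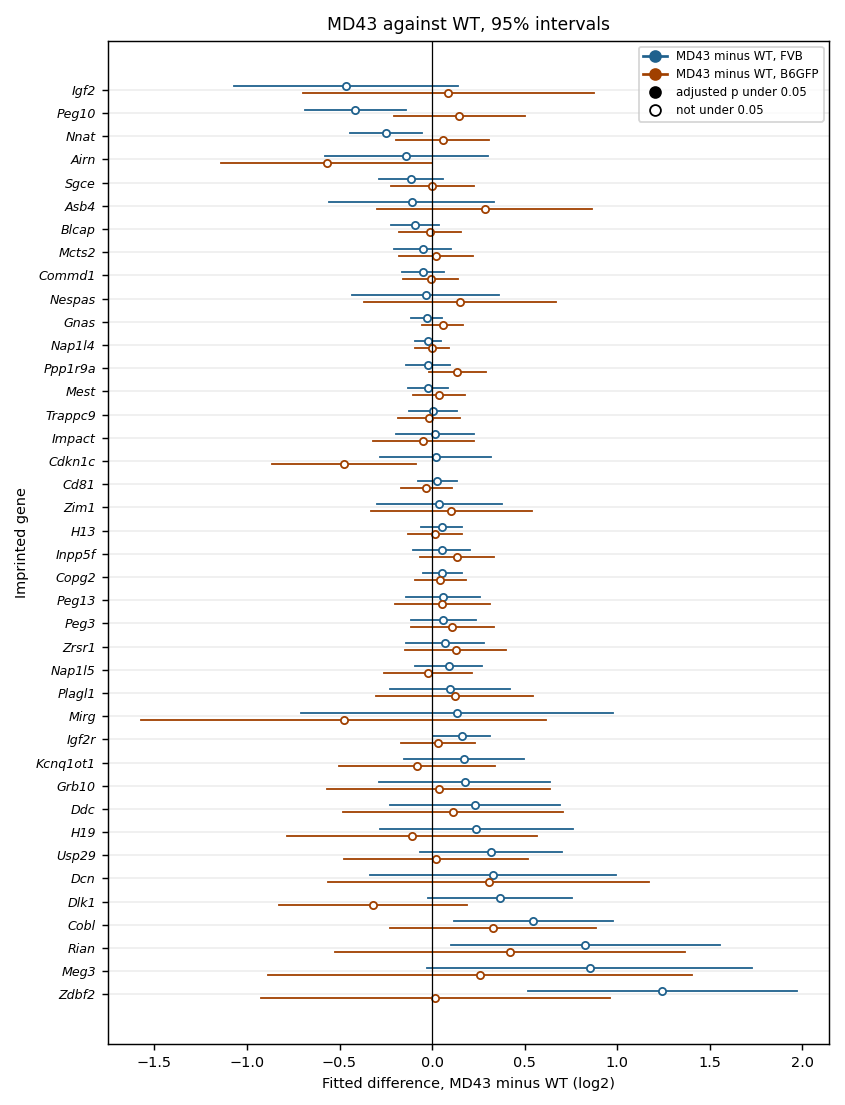
Fitted difference between MommeD43 and wild type (log2, horizontal axis) in FVB and B6GFP with 95% intervals for the 40 imprinted genes, ordered by the FVB value. All points are open because no adjusted p is under 0.05, and the intervals are widest for the genes of low level such as Zdbf2 and Meg3.

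In FVB the smallest p among the imprinted genes belonged to Zdbf2, a paternally expressed zinc finger gene of low level. Its values were -0.15, -2.81, -1.66, -0.33 and -0.87 log2 CPM in the 5 FVB_WT lines and -0.16, 0.00, -1.07 and 0.12 in the 4 FVB_MD43 lines. The ranges overlapped, and the FVB_WT lines spread over more than the distance between the groups. Both group means were below 1 CPM, so no fold is given. The fitted difference was 1.24 on the log2 scale (SE 0.348, adjusted p = 0.253, limma), 1.23 within batch 1, 2.24 within batch 2 and 0.75 without FVB_WT replicate 2, the lowest line.

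Peg10 followed in FVB. The FVB_WT lines were listed at 7.61, 8.33, 8.31, 8.74 and 7.48 log2 CPM and the FVB_MD43 lines at 7.92, 7.91, 7.47 and 8.18. Of the MommeD43 lines, 3 lay within the wild-type range and the line at 7.47 lay just below it. Its fitted change was -0.42 (SE 0.131, adjusted p = 0.344, limma), -0.40 within batch 1 and -0.24 within batch 2. Nnat, which encodes the brain proteolipid neuronatin, was listed at 8.13, 8.39, 8.28, 8.20 and 8.49 log2 CPM in FVB_WT and at 8.08, 7.95, 8.25 and 8.05 in FVB_MD43, with 3 MommeD43 lines below the lowest wild-type line. Its fitted change was -0.25 (SE 0.0933, adjusted p = 0.522, limma), -0.22 within batch 1 and -0.44 within batch 2.

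The count in FVB depended on a single line. Without FVB_MD43 replicate 2, whose batch 1 library had the largest weight (4.90), 6.57% of all genes passed and so did 6 of the 40, all of them higher in MommeD43: Rian (fitted difference 1.48, adjusted p = 0.00643, limma), Zdbf2 (1.48, 0.00706), Cobl (0.83, 0.011), Dcn (1.05, 0.0199), Peg13 (0.31, 0.0239) and Nap1l5 (0.27, 0.0342). Of these, Peg13, a non-coding RNA inside Trappc9, and Nap1l5, a retrogene, were the ones above 1 CPM. FVB_MD43 replicate 2 itself lay at -0.94 log2 CPM for Meg3 and 0.00 for Zdbf2, the highest and the second highest values of its group. These are means of its batch 1 and batch 2 libraries, which differed by 1.59 for Meg3 and 1.57 for Zdbf2 on the log2 scale.

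In B6GFP the smallest p among the imprinted genes belonged to Cdkn1c, the cyclin-dependent kinase inhibitor p57. The B6GFP_WT lines were listed at 3.07, 2.85, 2.39 and 1.31 log2 CPM and the B6GFP_MD43 lines at 2.15, 2.72, 2.34 and 2.70. The unweighted group means were 2.41 and 2.48, in the opposite order to the fitted change of -0.48 (SE 0.187, adjusted p = 1, limma), which gives little weight to the lowest wild-type line, replicate 4. Without quality weights the change was 0.00215, and without B6GFP_WT replicate 1 it was -0.31. Airn, with a fitted change of -0.57 (SE 0.274, adjusted p = 1, limma), was listed at 1.09, 1.41, 0.66 and 0.88 log2 CPM in B6GFP_WT and at 0.28, 0.51, 0.87 and 1.10 in B6GFP_MD43. Leaving out B6GFP_WT replicate 2 brought its change to -0.15, and leaving out B6GFP_MD43 replicate 1 to -0.26. It was -0.82 when B6GFP_MD43 replicate 3 was left out. Ppp1r9a had a fitted change of 0.14 (SE 0.0736, adjusted p = 1, limma; 0.23 without B6GFP_WT replicate 2), from 6.45 ± 0.153 log2 CPM (SD, n = 4 lines) to 6.70 ± 0.0618 (n = 4).

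In the average over strains, the smallest p belonged to Cobl, Zdbf2 and Rian. The fitted differences were 0.44 for Cobl, an actin nucleator, 0.63 for Zdbf2 and 0.62 for Rian, with an adjusted p (limma) of 0.98, 0.999 and 0.999. Cobl was below 1 CPM in each group mean and Rian in each but B6GFP_MD43. The difference of the MommeD43 effect between strains was 0.56 (SE 0.214) for Peg10, -0.69 (SE 0.307) for Dlk1, a membrane protein related to Notch ligands, and -1.23 (SE 0.571) for Zdbf2, with an adjusted p of 1 (limma) for each.

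The strains were then compared, first in wild-type and then in MommeD43 cells. In wild-type cells, 22 of the 40 imprinted genes passed, 9 higher and 13 lower in B6GFP, beside 41.1% of all genes (17.9% higher and 23.2% lower). In MommeD43 cells, 16 of the 40 passed, 6 higher and 10 lower, beside 34.4% of all genes (14.7% higher and 19.6% lower). Of the genes that passed in either, 14 passed in both, all in the same direction, which is 63.6% of the 22 and 87.5% of the 16. For all genes the corresponding shares were 70.7% and 84.6%. The groups of these comparisons differ, but the strains, the batches and the fit are shared.

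Both the count and the direction depended on the processing. Shares of the 40 that passed were 55.0% in wild-type and 40% in MommeD43 cells, and whether they differ from the shares of all genes was not tested. Without quality weights 2 of the 40 passed in wild-type cells (8.44% of all genes), Ddc and Cdkn1c, and 2 in MommeD43 cells (6.82%), Ddc and Asb4. Within batch 1, the batch that held both strains, 17 passed in wild-type cells (34.1% of all genes) and 11 in MommeD43 cells (24.1%). With each library centred on its median, 12 were higher and 9 lower in wild-type cells, and all genes turned as well (24.2% higher and 17.0% lower). In MommeD43 cells 6 were then higher and 8 lower, beside 20.2% and 15.2% of all genes. By line ranges that did not overlap, 3 of the 40 were higher and 4 lower in wild-type B6GFP (15.9% of all genes did not overlap), and 6 were higher and 5 lower in MommeD43 B6GFP (21.3%). Without FVB_WT replicate 2 the count in wild-type cells was 13 (26.9% of all genes), and without B6GFP_WT replicate 2 it was 14 (30.5%).

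**Figure D3:**
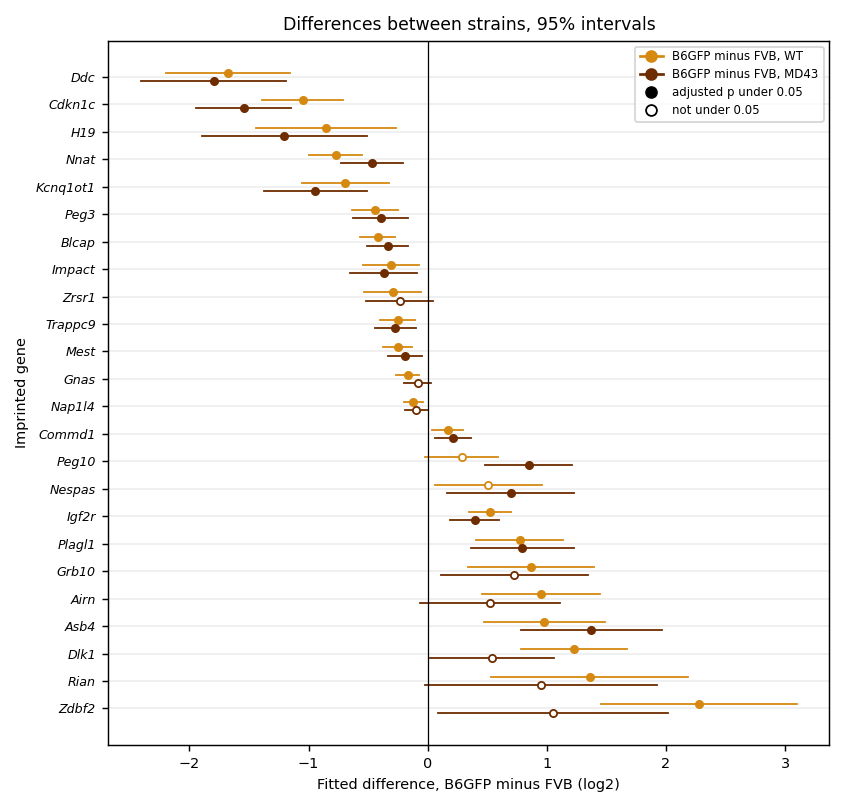
Fitted difference between B6GFP and FVB (log2, horizontal axis) with 95% intervals for the 24 imprinted genes that passed in wild-type or MommeD43 cells; filled points have an adjusted p under 0.05. The pairs of points lie on the same side of 0 for each gene, from Ddc at the top (-1.68 and -1.80) to Zdbf2 at the bottom (2.28 and 1.05).

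Among the genes lower in B6GFP were several with known roles in growth and in neural cells. Ddc, the enzyme that makes dopamine and serotonin from their amino acid precursors and a neighbour of Grb10, lay at 0.88, 1.70, 1.60, 0.58 and 2.49 log2 CPM in FVB_WT and at -0.10, -0.38, -0.11 and 0.73 in B6GFP_WT. The ranges overlapped through the single B6GFP_WT line at 0.73. The level in B6GFP was 0.313 of that in FVB in wild-type cells (95% interval 0.218 to 0.448, adjusted p = 1.98e-05, limma) and 0.288 in MommeD43 cells (0.189 to 0.44, adjusted p = 7.82e-05). In MommeD43 cells the ranges did not overlap. Without B6GFP_MD43 replicate 1 the log2 difference of Ddc in MommeD43 cells was -0.98 in place of -1.80 (adjusted p = 0.0021).

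Cdkn1c was lower in B6GFP in both comparisons without overlap of the lines. In FVB_WT it lay at 3.45, 3.91, 3.76, 3.87 and 3.38 log2 CPM and in B6GFP_WT at 3.07, 2.85, 2.39 and 1.31. In FVB_MD43 it lay at 3.61, 3.76, 2.95 and 4.05 and in B6GFP_MD43 at 2.15, 2.72, 2.34 and 2.70. The level was 0.483 of that in FVB in wild-type cells (0.382 to 0.611, adjusted p = 3.33e-05, limma) and 0.343 in MommeD43 cells (0.26 to 0.452, adjusted p = 3.02e-06). Kcnq1ot1, the non-coding RNA that silences Cdkn1c on the paternal copy, was lower as well, at 0.619 (adjusted p = 0.00363, limma) and 0.519 (adjusted p = 0.0014). Without B6GFP_WT replicate 2 the adjusted p of Kcnq1ot1 in wild-type cells was 0.082 (limma). The other genes of that cluster moved little: Nap1l4 was at 0.919 of its FVB level in wild-type cells (adjusted p = 0.014, limma; 0.0602 to 0.0841 without FVB_WT replicate 2, B6GFP_WT replicate 1 or B6GFP_WT replicate 2) and did not pass in MommeD43 cells, and Cd81 passed in neither. H19 was at 0.552 (adjusted p = 0.0197, limma) and 0.433 (adjusted p = 0.00786), while its neighbour Igf2 did not pass in either (adjusted p = 0.106 and 0.836). The adjusted p of H19 in wild-type cells was 0.129 when FVB_WT replicate 2 was left out and 0.0513 when FVB_WT replicate 3 was, and its log2 difference in MommeD43 cells went from -1.21 to -1.85 without B6GFP_MD43 replicate 1.

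Nnat and Blcap were lower in B6GFP together. Nnat lies within Blcap on the opposite strand (Nnat at chromosome 2, 157560078 to 157562525, Blcap at 157556362 to 157566361, GRCm38.p6), and the Nnat promoter printed above lies inside Blcap too. Nnat was listed at 8.13 to 8.49 log2 CPM in FVB_WT and at 7.56, 7.58, 7.54 and 7.19 in B6GFP_WT, with no overlap. Its level in B6GFP_WT was 0.585 of that in FVB_WT (0.502 to 0.681, adjusted p = 7.03e-06, limma). In B6GFP_MD43 the lines lay at 7.48, 9.04, 7.71 and 7.37, so 3 lay below all FVB_MD43 lines and replicate 2 lay above all of them, and the fitted level was 0.723 (0.604 to 0.865, adjusted p = 0.00622). Blcap was at 0.748 (adjusted p = 8.47e-05, limma) and 0.791 (adjusted p = 0.00356). Peg3, a paternally expressed zinc finger protein, was at 0.736 (adjusted p = 0.00082, limma) and 0.761 (adjusted p = 0.00902), and Mest at 0.841 (adjusted p = 0.00182) and 0.874 (adjusted p = 0.0339). The differences in MommeD43 cells depended on single lines. Without B6GFP_MD43 replicate 1 the log2 differences were -0.19 for Nnat, -0.13 for Blcap and -0.18 for Peg3, in place of -0.47, -0.34 and -0.39, and none passed (adjusted p = 0.143, 0.102 and 0.149, limma). Without B6GFP_WT replicate 2 the adjusted p was 0.0985 for Nnat, 0.0679 for Blcap and 0.141 for Peg3. Without B6GFP_MD43 replicate 4 it was 0.0899 for Peg3 and 0.0676 for Mest, and without FVB_MD43 replicate 1 it was 0.0643 for Mest. The wild-type log2 difference of Mest was -0.17 in place of -0.25 without B6GFP_WT replicate 1.

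Among the genes higher in B6GFP, Igf2r lay at 6.14, 5.98, 5.98, 6.27 and 5.92 log2 CPM in FVB_WT and at 6.52, 6.49, 6.24 and 6.83 in B6GFP_WT. The ranges overlapped by the single B6GFP_WT line at 6.24. In MommeD43 cells they did not overlap. Its level was 1.44 times that in FVB (1.27 to 1.62, adjusted p = 4.43e-05, limma) in wild-type cells and 1.31 times (1.14 to 1.51, adjusted p = 0.00372) in MommeD43 cells. Airn, its silencing RNA, was also higher in wild-type cells, 1.93 times (adjusted p = 0.00323, limma), and had an adjusted p of 0.159 in MommeD43 cells. Without FVB_WT replicate 2 or B6GFP_WT replicate 2 the adjusted p of Airn in wild-type cells was 0.0993 or 0.059.

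Zdbf2, Dlk1 and Plagl1 were higher in wild-type B6GFP. Zdbf2, with the hexamers of its printed promoter, was listed at 0.60, 0.94, -0.17 and -0.92 log2 CPM in B6GFP_WT, against -2.81 to -0.15 in FVB_WT, so that 2 B6GFP_WT lines lay above all FVB_WT lines and replicate 4 lay below 3 of them. The fitted level was 4.84 times that in FVB (2.74 to 8.55, adjusted p = 0.000108, limma), a log2 difference of 2.28. Without quality weights the log2 difference was 1.47 (adjusted p = 0.184). Dlk1 was 2.34 times higher (1.72 to 3.18, adjusted p = 0.000106, limma), with all 4 lines (0.16, 0.19, 0.22 and 0.98 log2 CPM) above all 5 FVB_WT lines (-1.30 to 0.03). Neither passed in MommeD43 cells, where Zdbf2 was 2.07 times as high (1.06 to 4.04, adjusted p = 0.0862, limma). Its line ranges did not overlap there, at 0.16 to 1.49 log2 CPM in B6GFP_MD43 and -1.07 to 0.12 in FVB_MD43. Dlk1 averaged below 1 CPM in both MommeD43 groups (-0.52 and -0.25 log2 CPM), so no fold is given. Its log2 difference in MommeD43 cells was 0.54 (SE 0.25, adjusted p = 0.0993, limma). Plagl1, a zinc finger regulator of other imprinted genes, was 1.71 times higher (1.32 to 2.2, adjusted p = 0.00158, limma) in wild-type cells and 1.74 times (1.28 to 2.34, adjusted p = 0.00557) in MommeD43 cells. B6GFP_WT replicate 4 lay far above the other Plagl1 values, at 5.65 against 3.95, 3.37 and 3.22, and had the lowest weight. The mesenchymal markers of this line summed to 6.31 log2 CPM. They summed to 3.89 to 4.46 in the other 3 B6GFP_WT lines and to at most 4.67 in the other lines of the study. In the B6GFP_WT mean, Foxc1 led the list (4.23 log2 CPM). Tbx18 (0.74) and Acta2 (0.33) followed, and Col1a1, Col1a2, Col3a1 and Pdgfrb lay between -2.72 and -1.28. Which markers made up the sum in replicate 4 is not given here. The same line was the lowest of its group for Nnat and Cdkn1c and the highest for Dlk1 and Kcnq1ot1, and the part of the mesenchymal markers in these values was not tested.

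In the Peg10-Sgce cluster, Peg10 and Asb4 were higher in MommeD43 B6GFP. Peg10 was listed at 8.57, 8.21, 9.07 and 8.81 log2 CPM in B6GFP_MD43 and 7.92, 7.91, 7.47 and 8.18 in FVB_MD43, without overlap, 1.8 times higher in B6GFP (1.4 to 2.31, adjusted p = 0.000796, limma). In wild-type cells it was 1.22 times as high and did not pass (adjusted p = 0.133), and the difference between the 2 comparisons did not pass either (adjusted p = 1). Asb4, maternally expressed, was 2.59 times higher in MommeD43 B6GFP (1.72 to 3.92, adjusted p = 0.00088, limma) and 1.97 times in wild-type B6GFP (1.39 to 2.8, adjusted p = 0.00295; 0.058 without B6GFP_WT replicate 2). Sgce and Ppp1r9a passed in neither.

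Both directions were found among paternally and among maternally expressed genes. Of 18 genes listed as paternally expressed, 4 were higher and 6 lower in wild-type B6GFP, and of 12 listed as maternally expressed 4 were higher and 2 lower. In MommeD43 cells, 3 paternal genes were higher and 5 lower, and 3 maternal genes were higher and 2 lower. Over all genes 17.9% were higher and 23.2% lower in wild-type cells, and 14.7% and 19.6% in MommeD43 cells. The other genes that passed are shown with their intervals in the plot of strain differences: Gnas, Trappc9, Impact, Zrsr1, Commd1, Grb10, Rian and Nespas. Each of these but Gnas lost its call in at least 1 comparison when a single line was left out, such as Grb10 in wild-type cells (adjusted p = 0.271 without B6GFP_WT replicate 2) and Trappc9 in MommeD43 cells (0.307 without B6GFP_MD43 replicate 1).

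Astrocyte markers moved with the strain. Their summed level was 7.98 to 8.34 log2 CPM in FVB_WT and 7.30 to 7.67 in B6GFP_WT, and 8.11 to 8.34 and 7.52 to 7.71 in the MommeD43 groups. All 4 of the 4 markers were lower in B6GFP. Aldoc was lower by -0.71 on the log2 scale in both comparisons (adjusted p = 2.01e-08 and 3.32e-07, limma). Gfap was lower by -1.70 and -2.14, Aqp4 by -2.48 and -2.89 and S100b by -1.82 and -2.20. These 3 lay below 1 CPM on average over all libraries and in both B6GFP groups, but above it in both FVB groups. Of the 7 NSC markers, 2 were higher and 4 lower in wild-type B6GFP, and 2 higher and 3 lower in MommeD43 B6GFP. Over all genes 41.1% and 34.4% passed in either direction. Of the 7 neuronal markers, 1 was higher and 2 lower in wild-type B6GFP, and 2 were higher and 1 lower in MommeD43 B6GFP. The part of these cell types in the strain differences was not tested.

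Genes that keep or read imprints were set beside the imprinted genes. Of 21 imprint regulators in the table, 3 were higher and 5 lower in wild-type B6GFP and 4 higher and 5 lower in MommeD43 B6GFP, beside 41.1% and 34.4% of all genes in either direction, and none passed for MommeD43 in either strain. Zfp445, which works with ZFP57 at imprints, was lower by -0.25 and -0.22 (adjusted p = 0.000299 and 0.00476, limma), Ehmt2, a histone H3K9 methyltransferase, by -0.22 and -0.24 (8.22e-05 and 0.000299), Tet2 by -0.50 and -0.48 (0.000647 and 0.00459), and Suz12, a Polycomb subunit, was higher by 0.25 in both (0.000304 and 0.0015). Zfp57 and Trim28 themselves did not pass in either. The median strain difference of the list was 0.00418 in wild-type and 0.04 in MommeD43 cells, beside -0.02 and -0.03 for all genes.

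Of 18 other imprinted genes, 6 were higher and 3 lower in wild-type B6GFP and 4 higher and 2 lower in MommeD43 B6GFP, and none passed for MommeD43. For this list and the next, the shares over all genes are again 41.1% and 34.4%. The smallest adjusted p belonged to Adam23, a cell surface protein of the ADAM family, lower by -1.39 and -1.59 (adjusted p = 9.7e-08 and 2.22e-07, limma). Sfmbt2 was lower too, by -1.43 and -1.93 (3.64e-05 and 9.88e-06), while Jade1 was higher by 0.40 and 0.39 (6.66e-05 and 0.000661). Of 11 genes of the insulin-like growth factor pathway, 2 were higher and 5 lower in wild-type B6GFP, and 2 higher and 3 lower in MommeD43 B6GFP. Insr, the insulin receptor, was higher by 0.40 and 0.29 (5.54e-05 and 0.00558), and Irs1, which relays its signal, lower by -0.47 and -0.57 (0.000288 and 0.000335).

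The lines of a group differed more in these genes than in most. The SD over lines within groups had a median of 0.405 on the log2 scale for the 40 genes and 0.217 for all genes, and 20 of the 40 lay above the 75th percentile of all genes. Among genes above 1 CPM on average, the median was 0.267 for 30 imprinted genes and 0.192 for 12843 genes, with 12 of the 30 above the 75th percentile. A choice of known imprinted genes was not compared with other lists of the same size. Gnas (0.0719), Nap1l4 (0.084) and H13 (0.0979) had the smallest SD, and Meg3 (1.33), Rian (1.08), Dcn (1.02) and Mirg (0.902) the largest.

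Grb10, an adaptor that restrains insulin and IGF signalling, varied most among the 10 imprinted genes of highest level, with an SD of 0.621 at a mean of 7.03 log2 CPM. Its lines lay at 6.53, 6.47, 6.76, 7.27 and 6.07 log2 CPM in FVB_WT, 5.97 to 7.24 in FVB_MD43, 7.86, 7.93, 6.72 and 5.87 in B6GFP_WT and 7.77, 7.81, 7.20 and 8.09 in B6GFP_MD43. Repeat libraries of the 5 lines sequenced more than once differed by a median of 0.454 and at most 0.712 for Grb10, so part of this spread was seen within lines as well. For Peg10 the SD over lines was 0.415 and the median repeat difference 0.0788. For Cdkn1c the values were 0.477 and 0.3. An SD over lines and a difference between repeat libraries are unlike measures. The repeat libraries of a line also came from different batches, so batch and repeat cannot be told apart in their difference.

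A single line stood apart for the Dlk1-Dio3 non-coding RNAs. B6GFP_MD43 replicate 2, of which only the batch 3 library was used, was listed at 3.26 log2 CPM for Meg3, 2.96 for Rian and -0.64 for Mirg, while the other 3 lines of its group lay at -2.32 to -0.35, -1.42 to -0.45 and -3.71 to -3.56. The paternally expressed Dlk1 of the same cluster was not raised there, at -0.54 log2 CPM against -0.80 to 0.42. The same line had the highest Nnat (9.04), Blcap (5.41), Usp29 (2.01) and Dcn (-0.35) of its group.

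Neuronal and endothelial markers were also highest in this line. Its neuronal markers summed to 10.39 log2 CPM against 9.88 to 10.07 in the other 3 lines and its endothelial markers to 3.62 against 0.33 to 1.19, while its mesenchymal markers, at 3.95, lay within the 3.08 to 4.67 of the others. Their part in these values was not tested. With this line and B6GFP_WT replicate 4 left out, a choice made after seeing the data, 22 imprinted genes passed between strains in wild-type cells (41.5% of all genes), 15 in MommeD43 cells (35.0%) and none for MommeD43 in FVB (0.0804%) or in B6GFP (0.0067%).

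**Figure D4:**
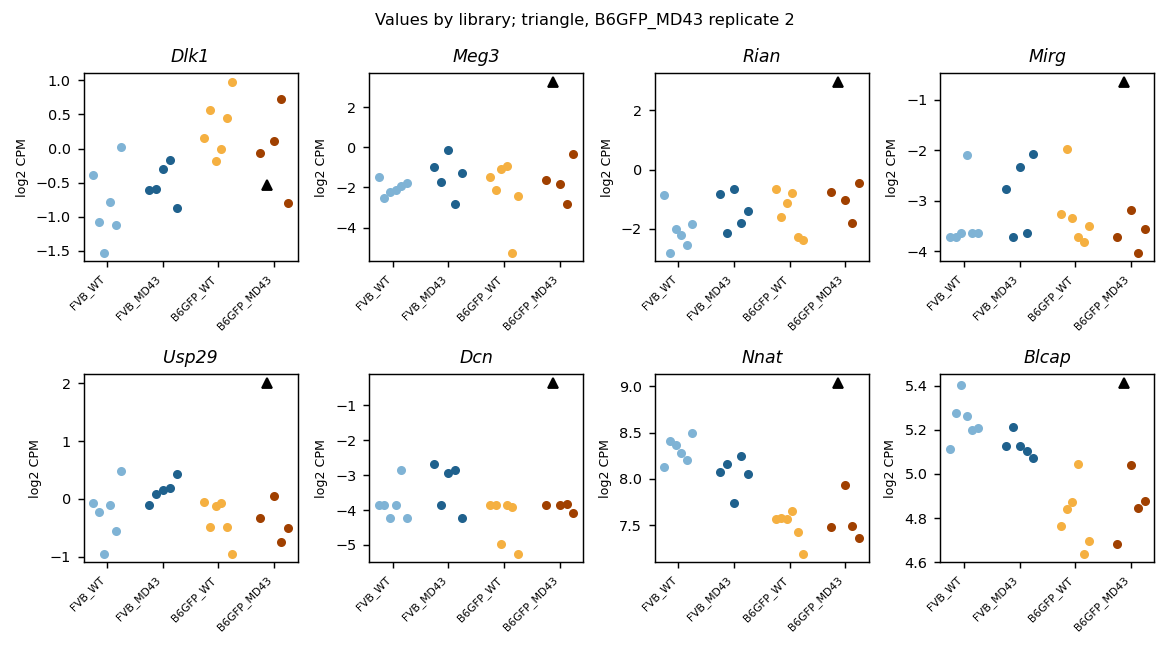
Values of 8 imprinted genes in each library (log2 CPM, vertical axis of each panel) by group; the black triangle is B6GFP_MD43 replicate 2. The triangle lies above all other libraries for Meg3 (3.26), Rian (2.96), Mirg (-0.64), Usp29 (2.01), Dcn (-0.35), Nnat (9.04) and Blcap (5.41), and within the others for Dlk1.

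Neighbours of a cluster were then compared across the 17 lines, after each group's mean was taken off. Of 9 pairs with both genes above 1 CPM, none passed in a two-sided permutation test with 100000 shuffles of lines within groups and Benjamini-Hochberg adjustment over the 9. Nnat and Blcap had the closest relation, with Pearson's r = 0.887 (permutation p = 0.0164, adjusted 0.0783) and Spearman's rho = 0.740 (p = 0.0125, adjusted 0.113), and r = 0.734 without the 2 B6GFP_MD43 lines farthest from the median of Nnat. Zrsr1, a retrogene inside Commd1, and its host had r = -0.539 (permutation p = 0.0174, adjusted 0.0783), rho = -0.449 (p = 0.0713, adjusted 0.217), and r = -0.714 without the 2 farthest lines and -0.398 without B6GFP_WT replicate 4. Igf2r and Airn, on opposite strands, gave r = 0.418 (permutation p = 0.115, adjusted 0.207), rho = 0.3995 (p = 0.145, adjusted 0.217), and r = 0.423 without the 2 farthest lines. Cdkn1c and Kcnq1ot1 gave r = -0.652 (permutation p = 0.0768, adjusted 0.186), rho = -0.441 (p = 0.116, adjusted 0.217), r = -0.495 without the 2 farthest lines and r = -0.336 without B6GFP_WT replicate 4, in which Cdkn1c was lowest and Kcnq1ot1 highest. The other 5 pairs had r between -0.357 and 0.375.

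**Figure D5:**
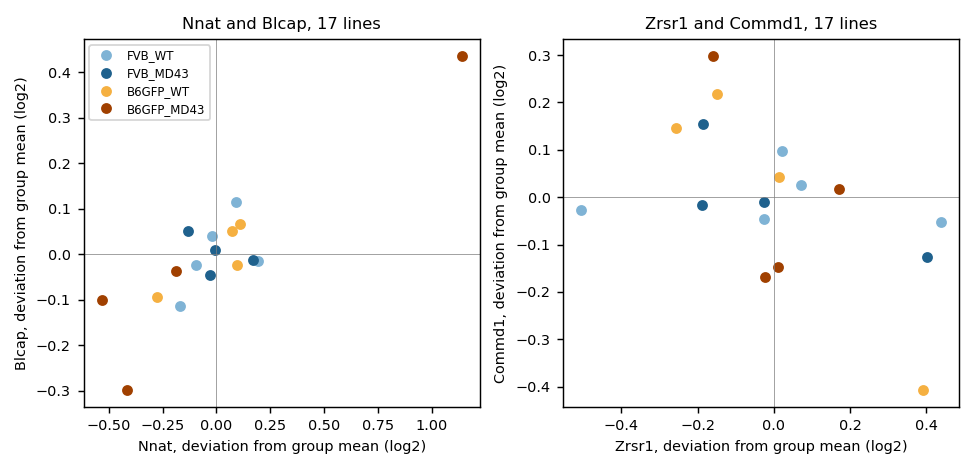
Deviation from the group mean (log2) of Blcap against Nnat and of Commd1 against Zrsr1, with 1 point per line in the 4 groups. For Nnat and Blcap the points rise together (r = 0.887), with B6GFP_MD43 replicate 2 at the upper right, and for Zrsr1 and Commd1 they fall (r = -0.539).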

How the data were processed

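Poly(A) RNA was sequenced by the authors as single-end reads, trimmed with Trim Galore 0.4.4, mapped with HISAT2 2.0.5 to GRCm38.p6 and analysed with limma 3.40.6, with batch correction that also drew on libraries not used here. The counter and its annotation, the depth and the use of strand in counting are not given in the sources used here. The deposited values are log2 CPM, not counts. The fixed design was kept: limma 3.58.1 (R 4.3.3) was fitted to the log2 CPM of all 14922 genes in 22 libraries, with group and batch as terms, array quality weights, a mean-variance trend and the line as a block (correlation 0.0827), and calls were made at a Benjamini-Hochberg adjusted p of 0.05 across the table. Labels do not say that the lines of a group are from separate embryos, so p-values speak only for these lines. They measure largely the spread between libraries. At a correlation of 0.0827, shared by all genes, repeat libraries of a line counted almost as separate samples. For genes whose lines differ more than their repeats, p-values can be too small. With line means and no batch term, 19 of the 40 passed between strains in wild-type cells (5319 of all genes) and 18 in MommeD43 cells (6643). The 40 genes, the other gene lists and the pairs were chosen with earlier results of these data known. Genes named with full values are, per comparison, up to 10 that passed, by p, and otherwise the 3 lowest in p, and no fold is given where both groups averaged under 1 CPM. Of other lists, up to 5 that passed could be named. On data with changes put in, the fit found 50.7% of log2 changes of 0.5, 82.1% of 1 and 95.5% of 2 (FVB_MD43 against FVB_WT, 14922 genes). These simulated data had normal errors with 1 SD per gene for all libraries and no batch effect. The real libraries had weights from 0.101 to 4.90, so these shares need not hold for them. Folds are on the deposited log2 scale, which understates those of low genes. Near the lowest value, 3143 of 3148 values (99.8%) were whole steps within 0.02 of a step. Alternatives are given in the closing section.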

Additional observations from a re-analysis of the deposited data

Results flagged for a closer look

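Of 160 groups of lines tested, 1 for each of the 40 genes in each of the 4 groups, 8 held a line whose gap to its nearest neighbour was large against the range of its group, and chance gives about 1 in 20. B6GFP_MD43 replicate 2 was the highest of 4 lines for Usp29 (gap 0.931 of the range, 2.01 log2 CPM against -0.33 for the next line), for Mirg (0.95, -0.64 against -3.56) and for Dcn (0.93, -0.35 against -3.83). B6GFP_WT replicate 4 was the highest of 4 for Dlk1 (0.923, 0.98 against 0.22) and for Kcnq1ot1 (0.84, 2.88 against 1.49), and the lowest of 4 for Nnat (0.906, 7.19 against 7.54). FVB_WT replicate 3 was the highest of 5 for Mirg (0.945, -2.09 against -3.62), and FVB_WT replicate 4 the highest of 5 for Dcn (0.714, -2.86 against -3.85). Mirg and Dcn lie at or near the lowest values of the table in most lines.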

How the results depend on the processing

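Absolute depth was not stated, so no counting interval can be given, and the genes below 1 CPM carry the widest error. The counts for MommeD43 were 0 with all alternatives except 2. With all 24 columns, the 2 that equal a group mean included, 4 imprinted genes passed in FVB, 1 in B6GFP, 5 in the average over strains, 1 in the difference between strains and 40 between strains in MommeD43 cells, since a column equal to its group mean adds no spread. Over all genes these columns gave 510, 480, 1010, 61 and 13991 calls, against 11, 0, 5, 0 and 5126 without them. Without FVB_MD43 replicate 2, 6 passed in FVB (981 of all genes). Leaving out B6GFP_MD43 replicate 1 or 3 gave 107 or 139 calls over all genes in B6GFP and 0 among the 40. Leaving out each line in turn gave 0 to 6 in FVB, 0 in B6GFP, 0 in the average and 0 in the difference between strains. Between strains it gave 13 to 22 in wild-type cells, with 13 without FVB_WT replicate 2 and 14 without B6GFP_WT replicate 2, and 11 to 22 in MommeD43 cells. Without quality weights 2 passed in wild-type and 2 in MommeD43 cells (1259 and 1017 of all genes), Cdkn1c in B6GFP turned from -0.48 to 0.00215, and 8 of the 10 named genes in each strain comparison kept their direction and no longer passed. The co-variation of Mest and Copg2 turned from -0.195 to 0.0888 without the 2 lines farthest from the median of Mest. With the replicate block, the replicate number of the labels as a fixed term, 0 of the 40 passed in each MommeD43 comparison (35 of all genes in FVB), 21 between strains in wild-type and 12 in MommeD43 cells. The numbers do not pair the samples: same-numbered wild-type and MommeD43 lines had correlations of their deviations between -0.484 and 0.138, and only 2 of 8 were above 0.1. The cause of these shifts was not tested unless given.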
